A study of Mus musculus with 33 samples.

Results

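The cadherin and protocadherin genes were followed through RNA-seq and hnRNP R crosslinking data of mouse motoneurons. Members were all gene symbols that start with Pcdh, or with Cdh followed by a digit, with comma-joined records split and each merged protocadherin cluster record counted once. This gave 65 symbols, of which 59 records stood among the 37926 records of the RNA tables, 62 genes among the 36194 genes of the crosslinking tables, and 56 symbols in both. The symbols Cdh29 and Pcdh24 occurred in the crosslinking tables only.

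Cadherins are calcium-dependent adhesion proteins of the cell surface. Classical type I cadherins such as N-cadherin (Cdh2) and type II cadherins bind the same molecules on neighbouring cells and are tied to actin inside the cell by catenins; in the spinal cord, combinations of type II cadherins help motoneurons of one pool to sort together. The alpha, beta and gamma protocadherins are encoded in clusters of variable exons and give neurons individual surface identities used in self-avoidance, whereas the delta protocadherins are single genes with roles in axon growth and synapse formation.

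The study knocked down hnRNP R, an RNA-binding protein, or 7SK, the abundant noncoding RNA it interacts with, in primary motoneurons of the CD-1 strain. Motoneurons grew in microfluidic chambers that separate axons from cell bodies and dendrites, and 22 RNA-seq libraries in 6 groups came from the axonal or the somatodendritic side of GFP control (4 libraries per side), hnRNP R knockdown (3 per side) and 7SK knockdown cultures (4 per side). The labels name no treatment and do not describe the knockdown method. Groups were taken from the titles: the descriptions of 4 RNA libraries (the 3 somatodendritic ones of hnRNP R knockdown and 1 axonal one of 7SK knockdown) also name a comparison table of another group. A further 11 libraries came from iCLIP, in which a protein is crosslinked to RNA by ultraviolet light and each cDNA marks a contact. They covered wild-type CD-1 motoneurons (2 unfractionated libraries, 1 nuclear, 1 cytoplasmic, all with antibody 1 against hnRNP R) and NSC34 cells, a hybrid line of motoneuron and neuroblastoma origin (2 unfractionated, nuclear and cytoplasmic libraries with antibodies 1 and 2, and 1 IgG control library). No IgG library from motoneurons was used here. Nothing in the labels ties the replicates to separate cultures, and p-values therefore reflect only the spread between these libraries, which may be technical.

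Total cDNAs of the iCLIP libraries ranged from 2796 to 456721, and the IgG library held 36280. RNA values came as 1 FPKM (fragments scaled by gene length and depth) per group, with no replicate values and no depth. With knockdown of hnRNP R, Hnrnpr RNA read 27.2 (control) and 10.8 FPKM (knockdown) on the somatodendritic side (q = 0.310 in the authors' deposited table) and 9.93 and 3.98 FPKM in axons, where the authors' deposited table has no test. Rn7sk, the 7SK gene, stood at 9104 and 6370 FPKM on the somatodendritic side (q = 0.00407 in the authors' deposited table). In axons the control had 2708 FPKM and the group labelled 7SK knockdown 3508 FPKM (q = 0.594 in the authors' deposited table), so the RNA was not lower there. The 6 general neuronal markers were all at 1 FPKM or more in both control compartments. Of the 10 motoneuron markers 3 (Ret, Isl1 and Lhx4) reached 1 FPKM in somatodendritic control RNA, while Chat, Isl2 and Mnx1 were listed at 0.

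In the hnRNP R libraries of motoneurons, cDNAs on this gene family were numerous, lay mostly in introns and were headed by the delta1 protocadherin Pcdh9. Member genes took 6334 cDNAs, 1.76% of the library (exact binomial 95% interval 1.72 to 1.81), in motoneuron replicate 1 and 7247 cDNAs, 2.27% (2.22 to 2.32), in replicate 2. The nuclear motoneuron library gave 1.65% and the cytoplasmic one 1.93%. In NSC34 cells the share was 0.175% (0.163 to 0.187) in replicate 1 and 0.148% (0.125 to 0.174) in replicate 2. The 4 fractionated NSC34 libraries lay between 0.140% and 0.286%, and the IgG library gave 0.314% (0.259 to 0.377). All 4 motoneuron libraries thus stood above all 7 NSC34 libraries, and the unfractionated NSC34 libraries stood below IgG. These intervals cover counting error only. Without an IgG library from motoneurons, hnRNP R contacts and background cannot be told apart in the motoneuron libraries.

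**Figure D1:**
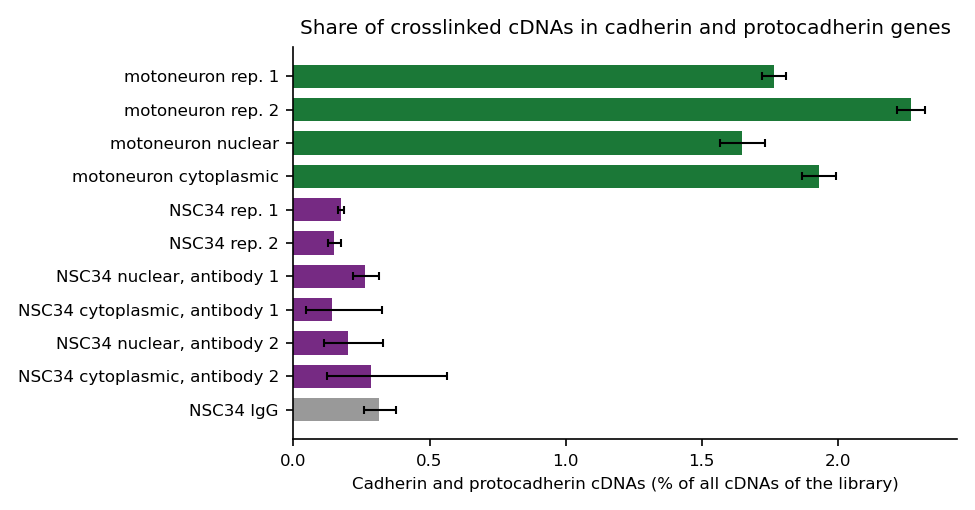
Share of all cDNAs that fell in cadherin and protocadherin genes, in percent, for each of the 11 iCLIP libraries, with exact binomial 95% intervals. Motoneuron libraries (green) lie between 1.65% and 2.27%, NSC34 libraries (purple) and IgG (grey) between 0.140% and 0.314%.

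Within the motoneuron libraries the members were far from even. Pcdh9, a homophilic adhesion protein of the delta1 group, alone held 34.3% of the member cDNAs and ranked 8 among all genes by cDNAs over both replicates. It spans 873 kb (mm9 chromosome 14, 93414730 to 94287950, minus strand) and had 1976 and 2684 cDNAs in the motoneuron replicates, 16 and 5 in the NSC34 replicates, and 5 in IgG. Here and below, paired values are replicates 1 and 2 of the unfractionated libraries. Of its motoneuron cDNAs 99.9% were intronic; the tables assign it only intron and coding segments. The groups did not overlap on the scale of cDNAs per 1000000 cDNAs of the library (CPM), with 5504 and 8404 in motoneurons against 35.0 and 50.1 in NSC34 cells.

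The other delta1 protocadherins followed this profile with one exception. Pcdh7 (mm9 chromosome 5, 58109338 to 58520589, plus strand) had 795 and 1256 cDNAs in motoneurons, 4 and 0 in NSC34 cells and 0 in IgG. Pcdh11x, on the X chromosome, had 196 and 291 against 4 and 0, with 1 in IgG. Pcdh1, the fourth delta1 gene and also an epithelial adhesion protein, had only 12 and 7 cDNAs in motoneurons, 45 and 8 in NSC34 cells and 12 in IgG. The delta1 genes together made up 53.1% of all member cDNAs in the unfractionated motoneuron libraries. Delta2 protocadherins added 3.46%, led by Pcdh17, an organiser of corticobasal ganglia synapses, with 211 and 136 cDNAs against 5 and 0 in NSC34 cells. Pcdh19, the gene mutated in a female-limited epilepsy, had 40 and 50 cDNAs in motoneurons and none in the unfractionated NSC34 and IgG libraries, with 1 in the nuclear NSC34 library of antibody 1.

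Type II cadherins made up 16.5% of the member cDNAs in motoneurons. Cdh8, a type II cadherin of neuronal circuits, led them with 515 and 537 cDNAs in motoneurons, 3 and 0 in NSC34 cells and 2 in IgG (mm9 chromosome 8, 101548370 to 101940370, minus strand). Cdh11 had 164 and 139 against 5 and 1, and Cdh18 had 157 and 143 against 11 and 0. Cdh10 had 88 and 80 cDNAs in motoneurons and 9 and 3 in NSC34 cells. Cdh6, Cdh7 and Cdh20, which mark subsets of motoneurons and other spinal cells in the embryo, held between 32 and 71 cDNAs in each motoneuron replicate. Cdh6 also had 22 and 8 cDNAs in NSC34 cells, while Cdh7 and Cdh20 had none in the unfractionated NSC34 libraries. The nuclear NSC34 libraries held 4 cDNAs of Cdh7 (antibody 1) and 1 of Cdh20 (antibody 2).

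Type I cadherins gave 9.45% of the member cDNAs, with Cdh2 at 7.32% and Cdh4 at 1.97%. Cdh2 had 554 and 440 cDNAs in motoneurons, 250 and 49 in NSC34 cells and 18 in IgG, so it was the most crosslinked member in both unfractionated NSC34 libraries. It stood at 1543 and 1378 CPM in motoneurons, 547 and 491 in NSC34 cells and 496 in IgG, so the NSC34 values lay on both sides of the control. Cdh4, or R-cadherin, had 154 and 114 cDNAs in motoneurons and 2 and 0 in NSC34 cells. The atypical Cdh13, or T-cadherin, which lacks the cytoplasmic tail and is held in the membrane by a lipid anchor, had 462 and 292 against 7 and 3. Pcdh15, a tip link protein of inner ear hair cells and, at 1550 kb, the member with the longest span, had 405 and 454 against 10 and 1.

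The alpha and gamma protocadherin clusters, like Cdh2, also had cDNAs in NSC34 cells. Their constant exons are shared by many variable exons, and the crosslinking tables list 2 overlapping genes for the alpha and 2 for the gamma cluster, so cDNAs of single isoforms could not be told apart. Pcdha6 had 207 and 162 cDNAs in motoneurons and 129 and 17 in NSC34 cells, and Pcdhga11 had 129 and 97 against 80 and 13, with 17 in IgG. On the CPM scale Pcdhga11 stood at 359 and 304 in motoneurons, 175 and 130 in NSC34 cells and 469 in IgG, so the control lay above both motoneuron replicates. The 21 beta protocadherins, which are mostly encoded by 1 large exon each, held 20 and 27 cDNAs over the whole cluster in the motoneuron replicates. They held 19 and 6 in the NSC34 replicates and 5 in IgG. On the CPM scale this was 55.7 and 84.5 in motoneurons, 41.6 and 60.1 in NSC34 cells and 138 in IgG.

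**Figure D2:**
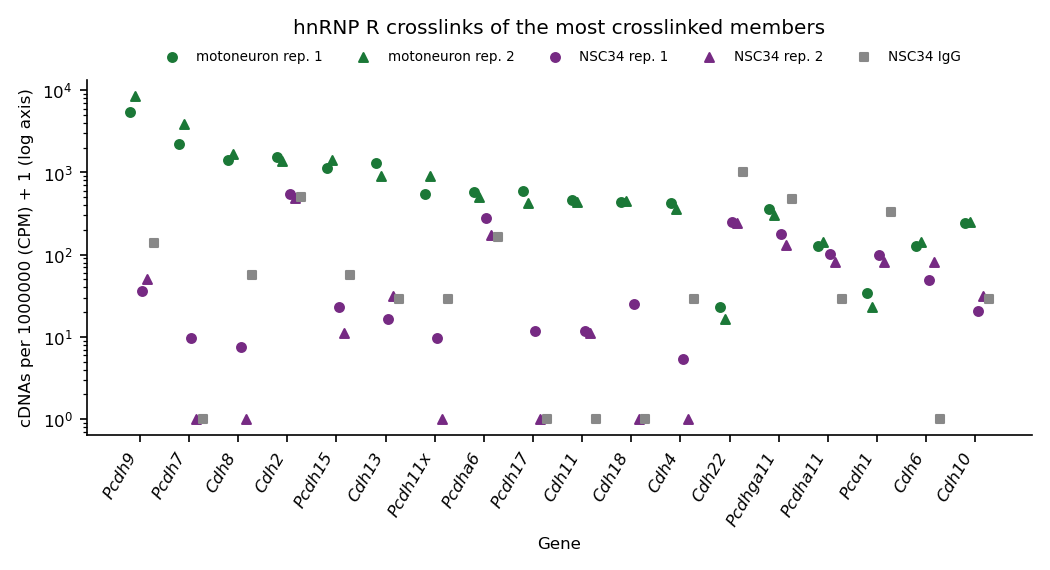
Crosslinks of the 18 members with the most cDNAs in motoneurons or NSC34 cells, as CPM plus 1 on a log axis, 1 point per unfractionated library. Pcdh9 to Cdh4 stand highest in both motoneuron replicates, while Cdh22 and Pcdh1 stand higher in the NSC34 and IgG libraries than in motoneurons.

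Crosslinks on members were more intronic than crosslinks at large. In motoneurons 97.2% of member cDNAs lay in introns in each replicate (exact binomial 95% intervals 96.8 to 97.6 and 96.8 to 97.5), against 88.1% and 86.5% of all cDNAs. In NSC34 cells the member shares were 90.1% and 87.2%, against 77.3% and 70.7% of all cDNAs, and in IgG 88.6% against 76.2%. Genes spanning 100 kb or more, 22 members among them, gave 96.0% and 95.3% intronic cDNAs in the motoneuron replicates, so the member value lay close to that of long genes. In the NSC34 replicates these genes gave 93.5% and 93.1%, and in IgG 92.1%, above the member shares there. Among members the cDNAs of motoneurons followed gene span (Spearman's rho = 0.919 over 46 units at 1 FPKM or more) and somatodendritic FPKM (rho = 0.711). Over all 10186 genes joined by symbol these were 0.761 and 0.339. These are descriptions across genes of the same libraries, and span and FPKM were themselves related among members (rho = 0.556).

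Member cDNAs were spread over many positions. There were 1.02 and 1.16 cDNAs per crosslink position in the motoneuron replicates, against 1.04 and 1.16 over all genes. Opposite-strand cDNAs were 1.05% and 0.549% of the cDNAs on either strand of members in motoneurons, 8.58% and 10.8% in NSC34 cells and 8.06% in IgG. Over all genes the shares were 3.15% and 2.11%, 4.30% and 4.78%, and 5.51%.

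Motoneurons were then compared with NSC34 cells gene by gene, with edgeR's quasi-likelihood test and Benjamini-Hochberg adjustment over all 9567 genes that had at least 10 cDNAs over the 5 unfractionated libraries. Of the 62 members 28 reached that minimum, and the other 34 had at most 9 cDNAs in these libraries. Of the 28, 24 were higher in motoneurons at an adjusted p under 0.05 and 1 was lower; of all genes tested, 23.4% were higher and 13.9% lower. Among genes spanning 100 kb or more these shares were 55.6% and 12.5%, and of the 21 members of that span 19 were higher and 1 was lower. Members with cDNAs almost only in motoneurons passed the minimum through that group, so the count describes the family and was not tested. The median log2 fold change was 6.38 over the 28 members, 0.08 over all genes and 1.25 over genes of 100 kb or more. For 6 members no cDNA was found in the unfractionated NSC34 libraries. With these set at the fold against 3 cDNAs over both NSC34 libraries, the median of the 28 was 4.56. With no minimum of cDNAs the median was 2.31 over 58 members and -0.15 over all genes.

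The scaling sets the level of these values. TMM factors, which align the bulk of genes, placed the median of all genes at 0.08, and plain library totals placed it at -0.86. Calls split into 2237 higher and 1329 lower with TMM and into 1343 higher and 3554 lower with library totals, under which 23 members were higher and 2 lower. No NSC34 RNA-seq was used here, so more crosslinking per RNA and more RNA cannot be told apart. With TMM, the 3 motoneuron markers tested (Isl1, Prph and Ret) were all lower in the motoneuron libraries at an adjusted p under 0.05. Of 4 neuronal markers tested 1 was higher and 0 lower. Of 3 astrocyte and radial glia markers 2 were higher and 0 lower, and of 2 Schwann cell markers 2 were lower. The part of other cells of the culture in the member values was not tested.

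Among members with cDNAs in both cell types, Pcdh7, Cdh8 and Pcdh9 had the largest fitted values. Pcdh9 had a log2 fold change of 8.41 (SE 0.37, adjusted p = 3.85e-31), and on library totals 182 times more cDNAs in motoneurons (counting interval 119 to 294). Pcdh7 stood at 9.57 (SE 0.44, adjusted p = 1.69e-30), and a ratio of totals of 421 (164 to 1545). Cdh8 followed at 8.97 (SE 0.43, adjusted p = 2.25e-29) with a ratio of 288 (98.2 to 1397), which rests on 3 NSC34 cDNAs. Pcdh11x, Cdh4, Pcdh15, Cdh13, Pcdh17, Cdh11 and Cdh18 had fitted values between 5.43 and 7.49. Leaving out NSC34 replicate 1 moved Cdh18 to 9.66, Pcdh17 to 9.86, Pcdh11x to 10.38, Cdh4 to 9.50, Cdh8 to 11.48 and Pcdh7 to 12.45; the remaining NSC34 replicate held 0 cDNAs of these 6, so these values are no bounds. Each of these 10 genes was higher in both motoneuron replicates than in either NSC34 replicate, but they were named for large fitted values from the same libraries. The share of all genes with such a gap was not counted, so this adds no evidence.

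For the 6 members without cDNAs in the NSC34 replicates the fitted value is no bound. They were set against 3 NSC34 cDNAs, with the motoneuron counts taken as exact and replicate spread left out. On library totals Cdh7 was then 29.0-fold, Pcdh19 24.6-fold and Cdh20 22.7-fold higher in motoneurons. Pcdh10 was 6.56-fold, Cdh9 5.74-fold and Pcdhb16 2.46-fold higher. These folds are not confidence limits. Cdh12, with 27 and 69 cDNAs against 1 and 0, had a ratio of 78.7 (13.8 to 3142), and Cdh3, or P-cadherin, with 17 and 5 against 1 and 0, a ratio of 18.0 (2.92 to 745). The folds and ratios given here hold for the unfractionated libraries. In the nuclear libraries of antibody 1, Cdh7 stood at 120 CPM (11 cDNAs) in motoneurons and 82.6 CPM (4 cDNAs) in NSC34 cells. With DESeq2, Cdh7 (adjusted p = 0.235) and Cdh3 (adjusted p = 0.0749) were not past the threshold and Pcdhb16 had no adjusted p. Without NSC34 replicate 1 Pcdhb16 was not past it with edgeR (adjusted p = 0.202).

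Members that NSC34 cells also carried in number moved less. Cdh2 was higher in motoneurons by 2.42 on the log2 scale (SE 0.25, adjusted p = 1.81e-13), with a ratio of totals of 2.73 (2.39 to 3.11). Cdh6 was higher by 2.19, Pcdha6 by 2.09 and Pcdhga11 by 1.98, the last with IgG above both motoneuron replicates on the CPM scale. Pcdha11 was higher by 1.44 (adjusted p = 0.000369), a call that was lost with library totals (0.48, adjusted p = 0.246), with DESeq2 (1.48, adjusted p = 0.0553) and with intronic cDNAs alone (0.81, adjusted p = 0.198). The other 3 members were not past the threshold: Pcdhga2 at 2.45 (adjusted p = 0.0573), Pcdh1 at -0.78 (adjusted p = 0.187) and Cdh19, a cadherin of glial precursors, at -1.58 (adjusted p = 0.319). With library totals Pcdh1 was lower in motoneurons, at -1.73 (adjusted p = 0.000844).

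Cdh22, a type II cadherin, was the only member lower in motoneurons with TMM scaling. It had 8 and 5 cDNAs in motoneurons, 115 and 24 in NSC34 cells and 37 in IgG. The log2 fold change was -2.73 (SE 0.40, adjusted p = 2.91e-08). It stood at 22.3 and 15.7 CPM in motoneurons, 252 and 241 in NSC34 cells and 1020 in IgG, where it was the most frequent member. The NSC34 value was thus below that of the control.

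**Figure D3:**
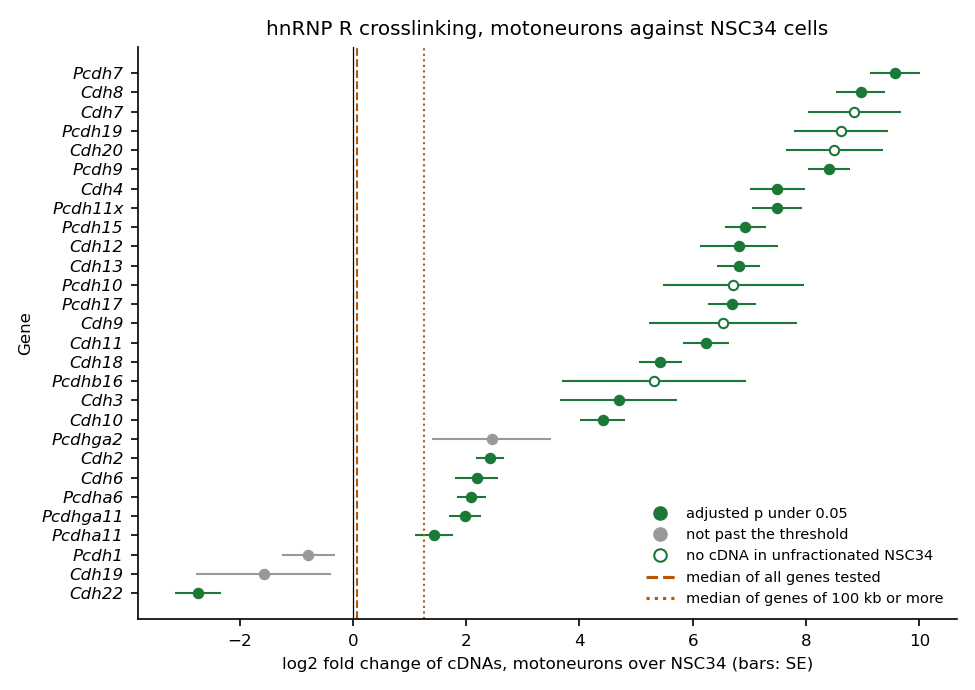
Log2 fold change of cDNAs in motoneurons over NSC34 cells for the 28 members tested, with standard errors derived from edgeR's fold change and F statistic. Green points are past the adjusted threshold, open points had no cDNA in the unfractionated NSC34 libraries and their position depends on the fit, and the lines mark the medians of all genes (0.08) and of genes of 100 kb or more (1.25).

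Set against IgG, no member was called higher in hnRNP R libraries of NSC34 cells. edgeR called 0 of the 28 members higher and 1 lower at an adjusted p under 0.05, while 0.199% of all genes were higher and 0.334% lower. At an unadjusted p under 0.05 there were 6 members and 987 genes, and DESeq2 called no member in either direction. The fitted value was above 0 for 11 of the 28, and 1 of the 6 was higher. That was Cdh6, with 48.2 and 80.2 CPM in the NSC34 replicates and 0 in IgG, where 3 cDNAs are 82.7 CPM (edgeR, unadjusted p = 0.0339, adjusted p = 0.413). The member called lower was Cdh22, at -1.77 (adjusted p = 0.00619), and the call was lost without NSC34 replicate 1 (-1.89, adjusted p = 0.0536), without replicate 2 (-1.73, adjusted p = 0.282) and with DESeq2 (-1.86, adjusted p = 0.286). The IgG group has a single library, which is assumed to vary like the others. Its file header names hnRNP R as the protein and carries library number 14, as NSC34 replicate 2 does; it was taken as IgG from its title.

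In the motoneuron fractions the family split by gene. These are 2 libraries, 1 per fraction, so the ratios below carry counting intervals only. Pcdh9 had 317 nuclear and 1234 cytoplasmic cDNAs, or 3472 and 6334 CPM, a nuclear to cytoplasmic ratio of 0.548 (0.483 to 0.621). Pcdh7 had a ratio of 0.610 (0.507 to 0.730), and the delta1 genes together 0.595 (0.540 to 0.655). Type II cadherins together had a ratio of 0.738 (0.629 to 0.863).

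The clustered genes lay on the other side. Pcdhga11 had 100 nuclear and 61 cytoplasmic cDNAs, a ratio of 3.50 (2.52 to 4.89), and Pcdha6 had 93 and 90, a ratio of 2.205 (1.63 to 2.98). Cdh4 also stood on the nuclear side with 89 and 67 cDNAs, a ratio of 2.83 (2.04 to 3.95). For Cdh2, at 1.11 (0.917 to 1.35), Cdh13, at 1.22 (0.987 to 1.50), and Pcdh11x, at 0.896 (0.670 to 1.19), the interval held equal shares. Introns took 97.7% of nuclear and 96.8% of cytoplasmic member cDNAs in motoneurons. Over all genes the intronic share was 91.5% in the nuclear and 87.5% in the cytoplasmic motoneuron library. In NSC34 cells it was 91.8% and 26.4% with antibody 1, and 91.6% and 43.0% with antibody 2. The motoneuron fractions thus differed little in this respect, and how well they were separated was not tested. The ratios above therefore do not place intronic member RNA in the cytoplasm.

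No fraction difference passed the test across the 3 pairs of nuclear and cytoplasmic libraries. With edgeR and a block per pair, 23 members were tested among 5177 genes and 0 were called, against 0% of all genes higher and 0% lower; at an unadjusted p under 0.05 there were 0 members and 27 genes. DESeq2 called 0 members and 3 genes. The NSC34 fractions held between 5 and 128 member cDNAs each, so they add little on single members. On simulated data this comparison recovered 18% of 4-fold and 74% of 16-fold changes, so smaller differences could be missed.

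RNA levels in the control motoneurons rose with crosslinks across members (Spearman's rho = 0.711 over 46 units), but the first member differed. On the somatodendritic side the highest value belonged to the merged gamma cluster record, listed as Pcdhga9, at 99.4 FPKM, followed by Cdh2 at 43.1, the alpha cluster record, listed as Pcdha2, at 38.5, Cdh13 at 38.2 and Pcdh1 at 38.1 FPKM. Pcdh10 stood at 29.3, Cdh4 at 28.9, Cdh8 at 28.8, Pcdh11x at 21.1 and Pcdh17 at 18.9 FPKM. The cluster records sum many isoforms, so their level is not that of 1 gene. Pcdh9, first by crosslinks, stood at 13.4 FPKM, and Pcdh1 had 19 crosslinked cDNAs over both motoneuron replicates at 38.1 FPKM. Per FPKM, Pcdh9 gave 349 cDNAs, Pcdh7 113, Cdh2 23.0 and Pcdh1 0.498; their spans were 873, 411, 220 and 26.1 kb.

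Some cadherins known from other tissues were near or at 0, and others were not. Pcdh1 stood at 38.1, Pcdh15 at 9.24, Cdh23 at 2.66 and Cdh3 at 1.41 FPKM in the somatodendritic control. Cdh5 of endothelium, Cdh15 of muscle, Cdh16 of kidney, Cdh17 of gut and Cdh19 were listed at 0 FPKM in the somatodendritic control, as were Pcdh12 and Pcdhb1, and Cdh1, the epithelial E-cadherin, was listed at 0.287 FPKM. In the crosslinking tables Cdh5 and Cdh16 had no cDNA in any of the 11 libraries. The 22 beta protocadherin records had a median of 2.42 FPKM and a highest value of 10.1 (Pcdhb17).

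In axons Cdh2 came first. It stood at 48.5 FPKM there, ahead of the gamma record at 44.8, Cdh13 at 25.3, Pcdh1 at 13.1, the alpha record at 10.2 and Pcdh11x at 10.2 FPKM. Pcdh7 followed at 9.53, Cdh11 at 9.48, Pcdh10 at 9.41 and Cdh4 at 8.84 FPKM. Pcdh15 held place 17 on the somatodendritic side (9.24 FPKM) and place 33 in axons (1.31 FPKM). The deposited tables used here give no replicate values for these groups, so neighbours in either order cannot be told apart by their spread.

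Members as a group read lower in the axonal than in the somatodendritic control. Of the 47 records at 1 FPKM or more in either control compartment, 7 had a higher value in axons. Their median log2 ratio was -1.23 (0.1 FPKM added to each value). Of all 13576 records past the same minimum 29.5% were higher in axons, and their median was -0.58. The values come from tables scaled separately and carry no test, and in such bulk RNA fewer cells of a type and less RNA per cell cannot be told apart. Cdh2, Cdh6 (7.88 against 7.08 FPKM) and Cdh7 (7.58 against 7.36 FPKM) read near parity. Cdh8 stood at 5.72 FPKM in axons against 28.8, and the alpha record at 10.2 against 38.5. By family, the summed FPKM in axons was 0.796 of the somatodendritic sum for type I cadherins, 0.487 for type II, 0.436 for delta1, 0.386 for delta2 and 0.364 for beta protocadherins.

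Beside this, markers of other cells differed between compartments. The 11 fibroblast and smooth muscle markers summed to 802 FPKM in the axonal control and 123 FPKM in the somatodendritic control. Of them 7 and 5 were at 1 FPKM or more, with Lum (axon) or Postn (somatodendritic) at 0. Acta2 (526 and 82.8 FPKM) and Tagln (230 and 24.5 FPKM) had the largest values, while Lum, Dcn and Pdgfra read lower in axons. The 10 astrocyte and radial glia markers summed to 662 and 472 FPKM, none at 0, but did not move together. Vim (408 and 147 FPKM), Nes (68.0 and 9.51 FPKM) and Sox2 (15.8 and 14.7 FPKM) read higher in axons. Gfap, Aqp4, Slc1a3, Fabp7, Aldh1l1, Sox9 and Hes5 read lower there. The 6 neuronal markers summed to 462 FPKM in the axonal and 1649 FPKM in the somatodendritic control. The part of these cells in the cadherin values was not tested.

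**Figure D4:**
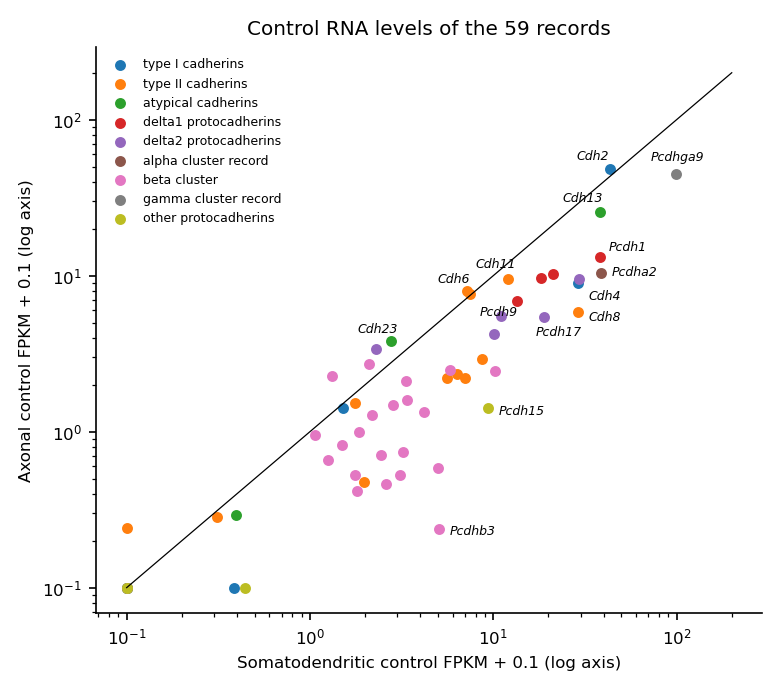
Control FPKM of the 59 member records in axons against the somatodendritic side, with 0.1 FPKM added and both axes on a log scale; each point is 1 record, coloured by family, and the line marks equal values. Cdh2 lies just above the line and most records, such as Cdh8 and Pcdh15, lie below it.

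No member passed the authors' test in any of the 4 knockdown tables. The authors' deposited tables tested 4 members in hnRNP R knockdown axons, 2 in axons labelled 7SK knockdown, 9 in hnRNP R knockdown and 7 in 7SK knockdown somatodendritic RNA, and 0 had q under 0.05. The share of all tested genes with q under 0.05 was 0.114%, 3.07%, 0.975% and 2.51% in the same order. At an unadjusted p under 0.05 the members numbered 2, 0, 1 and 2, beside 9.26%, 18.1%, 12.3% and 15.3% of all tested genes. Both knockdowns share their GFP controls within a compartment.

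In hnRNP R knockdown axons, Cdh2 stood at 48.5 FPKM in the control and 27.4 in the knockdown in the authors' deposited table (log2 ratio -0.82, p = 0.0423, q = 0.500). Cdh4 stood at 8.84 and 34.4 FPKM in the authors' deposited table (log2 ratio 1.96, p = 0.0418, q = 0.500), a record merged with Gm10711. Cdh13 (25.3 and 21.8 FPKM) and the gamma record (44.8 and 46.3 FPKM) had q of 0.898 and 0.983 in the authors' deposited table. In somatodendritic RNA Cdh2 stood at 43.1 and 34.6 FPKM (p = 0.0310, q = 0.329) and Pcdh1 at 38.1 and 46.4 FPKM (p = 0.0597, q = 0.420) in the authors' deposited table. Cdh4 there stood at 28.9 and 20.8 FPKM in the authors' deposited table (q = 0.827), the opposite direction to axons.

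In axons labelled 7SK knockdown, Cdh2 stood at 49.8 FPKM in the control and 31.9 in the knockdown group (p = 0.105, q = 0.358 in the authors' deposited table), and the gamma record at 45.9 and 42.1 FPKM (q = 0.904). In somatodendritic RNA Cdh13 came closest to the threshold, with 35.1 FPKM in the control and 17.3 in the knockdown (log2 ratio -1.02, p = 0.00145, q = 0.0525 in the authors' deposited table). Pcdh1 stood at 35.1 and 44.8 FPKM there (p = 0.0290, q = 0.253 in the authors' deposited table). Cdh2, Cdh8, Cdh4 and the alpha and gamma records differed by at most 0.15 on the log2 scale, with q of 0.694 or more in the authors' deposited table.

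Most members were too low for the authors' test, and their values stand as group values only. In the authors' deposited tables axonal Cdh13 was listed at 26.0 FPKM (control) and 8.73 FPKM (labelled 7SK knockdown), untested, the same direction as on the somatodendritic side. Pcdh19 was listed at 5.56 and 20.7 FPKM and Cdh6 at 8.11 and 1.85 FPKM in that comparison of the authors' deposited tables. Pcdh15 was listed at 1.31 FPKM in control and 6.70 FPKM in hnRNP R knockdown axons in the authors' deposited table. Among the most crosslinked members, Pcdh9 was listed at 13.4 and 14.3 FPKM and Pcdh7 at 18.1 and 18.2 FPKM in control and hnRNP R knockdown somatodendritic RNA of the authors' deposited table. These untested differences have no measure of error.

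Over the records at 1 FPKM or more in either group, the median log2 ratio of members (0.1 FPKM added) was 0.07 in hnRNP R knockdown axons, 0.20 in axons labelled 7SK knockdown, 0.09 in hnRNP R knockdown and -0.12 in 7SK knockdown somatodendritic RNA. Over all such records it was 0.03, 0.07, 0.02 and 0.08. The summed FPKM of all members was 277 and 283, 284 and 287, 575 and 573, and 529 and 506 in control and knockdown, in the same order. Records above the control numbered 23 of 41, 22 of 39, 29 of 48 and 16 of 47.

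Markers of other cells moved in the axonal comparison labelled 7SK knockdown. The fibroblast and smooth muscle list summed to 826 FPKM (control) and 352 FPKM (knockdown group). Acta2 (543 and 176 FPKM) and Tagln (237 and 107 FPKM) had its largest values. Col1a1 (27.1 and 46.1 FPKM), Col1a2 (2.24 and 12.1 FPKM) and Pdgfrb (0.853 and 1.11 FPKM) read higher in the knockdown group. The 8 microglia markers summed to 8.46 and 103 FPKM, with Aif1 listed at 0 in the control and Tyrobp at 0.886 and 43.0 FPKM in the authors' deposited table. The astrocyte and radial glia list summed to 680 and 506 FPKM, and 1 of its 4 tested genes and 1 of the 3 tested fibroblast and smooth muscle genes had q under 0.05 in the authors' deposited table, both lower. In hnRNP R knockdown axons the sums were 802 and 1037 FPKM for fibroblast and smooth muscle markers and 8.30 and 19.1 FPKM for microglia markers. There Acta2 (526 and 673 FPKM) and Tagln (230 and 332 FPKM) read higher and Col1a1 (26.3 and 14.6 FPKM) lower. On the somatodendritic side Acta2 stood at 76.3 FPKM in the control and 130 in 7SK knockdown (q = 0.00407 in the authors' deposited table). The part of these cells in the member values was not tested.

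**Figure D5:**
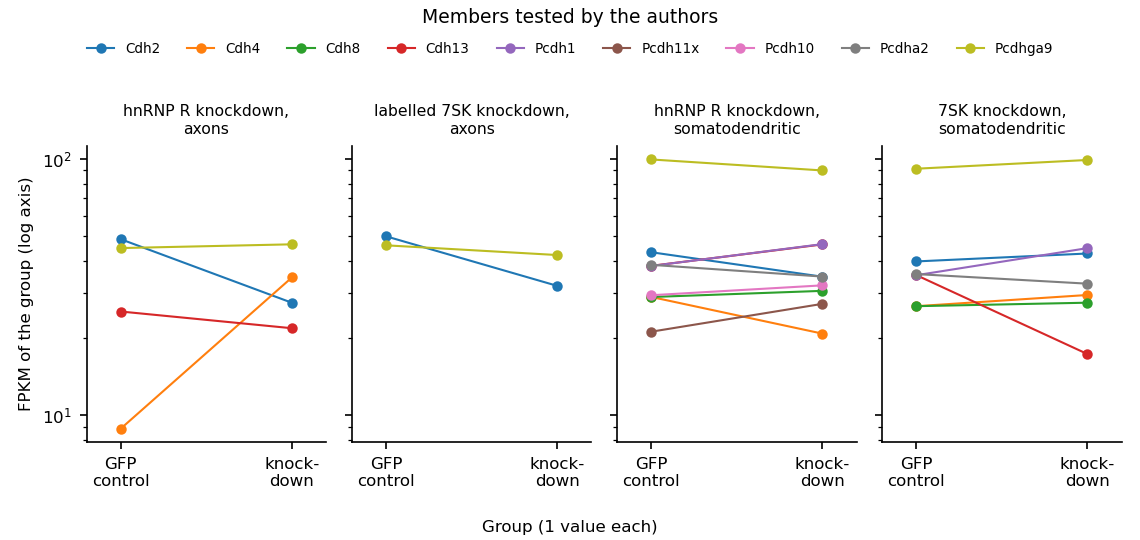
FPKM of the members tested by the authors, in the GFP control and knockdown group of each of the 4 deposited tables, on a log axis; each line joins the 2 group values of 1 record, with no replicate spread. Cdh4 and Cdh2 in hnRNP R knockdown axons and Cdh13 in 7SK knockdown somatodendritic RNA show the steepest lines, and none passed q under 0.05.

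Genes that work with cadherins were read from 5 lists in the same crosslinking comparison, in which 23.4% of all genes were higher and 13.9% lower with TMM, and 1343 and 3554 of 9567 with library totals. Of the 12 catenins, which link classical cadherins to actin, 9 were tested between motoneurons and NSC34 cells; 5 were higher and none lower with TMM, but 3 were higher and 4 lower with library totals. Ctnna2, the neuronal alpha-catenin, had 4398 and 4960 CPM in motoneurons and 885 and 752 in NSC34 cells (log2 fold change 3.43, adjusted p = 2.66e-19), and Ctnnd2, the neuronal delta-catenin, was higher by 4.64. Ctnnb1, beta-catenin, was not past the threshold (-0.46, adjusted p = 0.327) although its RNA was the highest of the list, at 138 FPKM in the somatodendritic control.

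Of 12 genes of large cadherin-related proteins (Fat, Dachsous, Celsr and calsyntenin), 10 were tested; 5 were higher and none lower with TMM, and 4 and none with library totals. Fat3 had 515 and 858 CPM in motoneurons against 4.38 and 0 (log2 fold change 8.28, adjusted p = 2.10e-25), and Clstn2 638 and 924 against 4.38 and 0 (8.47, adjusted p = 1.94e-26). Of the 10 cytoplasmic partners of protocadherins, such as the WAVE complex and the kinases Fyn and Ptk2, 8 were tested; 4 were higher and none lower with TMM, but 1 was higher and 2 lower with library totals. Cyfip2 led at 5.54 (adjusted p = 2.34e-15). Of 7 genes of cadherin-shedding proteases 5 were tested and 0 were called with TMM, while 2 were lower with library totals. Of 9 genes for protocadherin promoter choice (such as Ctcf and cohesin) 3 were higher and 3 lower with TMM, and 0 and 6 with library totals. No gene of these 5 lists had q under 0.05 in any of the authors' deposited tables, where 0.114% to 3.07% of all tested genes did. Few were tested in each: 2 to 5 catenins, 3 to 6 cadherin-related genes and 1 to 7 partners. At most 1 protease gene and 1 promoter choice gene were tested, so the absence of calls says little.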

How the data were processed

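Members and gene lists were chosen with earlier results of these data known. The authors' deposited RNA tables, on build GRCm38, give 1 FPKM per group, log2 fold changes, a test score, p-values and q-values per record; the submitters' processing notes name Cufflinks 2.2.1 and FastQC 0.10.1. The iCLIP tables deposited by the authors hold a count of cDNAs per gene (build mm9, Ensembl release 59, per the file headers), total and by intron, coding sequence and UTR; neither headers nor labels name the aligner or read collapsing. A further 1221 per-sample columns were not used.

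Counts were tested with edgeR 4.0.16 (R 4.3.3; TMM, quasi-likelihood, Benjamini-Hochberg at 0.05, at least 10 cDNAs over the libraries of a fit), after a check on simulated data. There a 4-fold change was recovered for 64% of changed genes between motoneurons and NSC34 cells. It was recovered for 13% against IgG and 18% between fractions. For a 16-fold change these were 100%, 73% and 74%. One fit held the 5 unfractionated libraries with a mean per group. The other held the 6 fractionated libraries with a block for each pair of cells and antibody, since these differ between pairs. Alternatives were DESeq2 1.42.0, library totals, other minimums, intronic cDNAs, leaving out libraries, and a replicate block. The test gives no standard error, so SE is the absolute log2 fold change divided by the square root of the F statistic. Replicates differed by more than sampling noise. Where a group had 0 cDNAs, folds use 3 cDNAs over that group and are not confidence limits. RNA values without replicates allowed no refit, so the authors' test was used as deposited.

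Named genes were every member the authors tested, the 10 highest in each control compartment, the 12 most crosslinked in each cell type and up to 10 called members per direction; further members are named as examples chosen after their values were seen. Promoter and protein sequences were not used here.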

Additional observations from a re-analysis of the deposited data

How the results depend on the processing

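The number of members higher in motoneurons than in NSC34 cells was 24 and stayed between 20 and 24 under all alternatives run (20 with DESeq2 and with at least 30 cDNAs, 21 to 24 with 1 library left out). Members lower numbered 1, and 2 with library totals. Replicate numbers did not pair the libraries (correlation of deviations 0.00279 over 9407 genes); a replicate block on the 4 hnRNP R libraries gave 23 members higher and 1 lower, and no replicate block in the fraction comparison gave 0. Against IgG, 1 member was lower, and 0 with DESeq2 or without either NSC34 replicate. Of 288 values of the 28 tested members, 280 kept direction and side of the threshold, 6 lost the call, 2 gained it and 0 reversed; a further 20 had no test or no adjusted p. The losses were Pcdha11 in 3 settings, Cdh3 and Cdh7 with DESeq2 and Pcdhb16 without NSC34 replicate 1. The gains were Pcdh1 (lower) with library totals and Pcdhga2 without motoneuron replicate 1. Over all genes, DESeq2 gave 1143 higher and 387 lower in motoneurons, library totals 1343 and 3554, and leaving out NSC34 replicate 1 1280 and 674. Against IgG, all genes numbered 3 to 29 higher and 3 to 71 lower over the alternatives, beside 19 and 32.

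The authors' unadjusted p under 0.05 gave 2 members in hnRNP R knockdown axons, 1 in hnRNP R and 2 in 7SK knockdown somatodendritic RNA. In axons labelled 7SK knockdown the median member ratio was -0.38 over 2 tested records, 0.20 over 39 records with 0.1 FPKM added and 0.13 with 1 FPKM added. The axonal against somatodendritic median ranged from -1.23 to -0.99.

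Without the top member, the member share of cDNAs was 1.22% and 1.44% in the motoneuron replicates, 1.31% in the nuclear and 1.305% in the cytoplasmic library, 0.120% and 0.0993% in the NSC34 replicates, 0.192% in the nuclear NSC34 library of antibody 1 and 0.212% in IgG. Of intronic cDNAs alone, members took 1.95%, 2.55%, 1.76%, 2.14%, 0.204% and 0.183% in the first 6 of these, and 0.531% and 0.583% in the cytoplasmic NSC34 libraries of antibodies 1 and 2. As a median over members with at least 10 cDNAs, the intronic share was 98.8% and 99.05% in the motoneuron replicates, 99.4% in the nuclear motoneuron library, 98.0% and 100% in the NSC34 replicates, 100% in nuclear NSC34 (antibody 1) and 94.1% in IgG. The causes were not tested. Depth limits the small libraries: 3 cDNAs are 30.1 CPM in NSC34 replicate 2 and 82.7 in IgG.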
